A study of Mus musculus with 4 samples.

Results

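The cytochrome c oxidase assembly factors described here are the copper, heme and insertion factors of respiratory complex IV, chosen by gene name: Cox10, Cox11, Cox15, Cox17, Cox18, Sco1, Sco2 and Surf1. Of these 8 genes, 7 were found among the 29300 genes of the deposited count table, and Sco2 was not analysed here. Hippocampi of C57BL/6 males, wild type and between 7 and 8 months old, were taken on day 1 after the operation, with 1 library from each of 2 control and 2 surgery mice. The control mice, labelled sham, received isoflurane anesthesia and tramadol without a fracture, and the surgery mice received the same anesthesia and analgesia followed by an open tibial fracture fixed with an intramedullary nail. Both groups therefore carry the effects of anesthesia and analgesia, and a group without either is not analysed here. The comparison asks how the transcripts of these factors differed after surgical trauma in this model of perioperative neurocognitive disorder (PND).

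Complex IV passes electrons from cytochrome c to oxygen through copper and heme a centers that are built into its mitochondrially encoded core subunits. Cox17 carries copper in the intermembrane space and hands it to Sco1 and Sco2 for the copper site of the subunit mt-Co2 and to Cox11 for the copper site of mt-Co1. Cox10 converts heme b to heme o and Cox15 converts heme o to heme a, while Surf1 acts in early assembly of mt-Co1 and Cox18 moves the C-terminal tail of mt-Co2 across the inner membrane. In people, inherited defects of several of these genes, SURF1 among them, cause Leigh syndrome or other encephalomyopathies or cardiomyopathies with complex IV deficiency.

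The Cox17 coding sequence is shown first because it bears on what the Cox17 counts can hold. In GENCODE M21, which has the mm10 coordinates of the deposited table for all 7 genes, Cox17 (ENSMUSG00000046516) lies at chr16:38346991-38352763 on the plus strand, and its shortest coding mRNA has 3 exons and 444 nt. The 189 coding nt before the stop codon, between chr16:38347101 and chr16:38349322, are printed 5′ to 3′ without the intron, with exon 1 in lower case and exon 2 in capitals.
Cox17: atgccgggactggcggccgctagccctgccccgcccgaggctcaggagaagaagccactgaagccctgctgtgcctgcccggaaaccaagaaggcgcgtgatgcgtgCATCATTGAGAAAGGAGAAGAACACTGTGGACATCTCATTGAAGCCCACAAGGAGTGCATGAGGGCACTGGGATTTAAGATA
All 189 of these bases (100%) also lie in exons of Gm21987, a gene annotated on the same strand that continues into an exon of its own, so a counter that sets aside reads shared by genes would not credit them to Cox17. Gm21987 itself was not analysed here. Other annotated Cox17 transcripts keep intron sequence, and with them the exons of the gene form 1 block of 5773 nt, of which 92.3% lies outside this mRNA. How shared reads were treated is not given in the sources used here, and the values of Cox17 below are for the whole locus.

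The 4 libraries held 15763432 to 18573386 counts. Of the hippocampal markers, Wfs1 and Fibcd1, markers of CA1 pyramidal cells, were lower in the surgery mice (log2 fold changes of -0.70 and -0.64), Calb1 and Zbtb20 were higher (0.48 and 0.44), and Prox1, a marker of dentate granule cells, had 0.43 with an adjusted p of 0.054 by the edgeR test described next. The summed choroid plexus markers were at 126 and 5382 CPM (counts relative to the scaled library total) in control and at 2019 and 3428 CPM in surgery mice, so the first control library stood apart with the least of this tissue. The second surgery library had the least of the oligodendrocyte markers, 3733 CPM in sum against 5081 to 5869 in the others. Of 6 neuronal markers 2 passed as lower in the surgery mice, Slc17a7 (-0.39) and Tubb3 (-0.64), and 0 as higher. Of the glial and endothelial markers, 1 passed as lower, Aldh1l1 (-0.49), and 4 as higher, Aqp4 (0.73), Gja1 (0.36), P2ry12 (0.84) and Flt1 (0.41). No marker of the 10 lists was at 0 in all 4 libraries. Transcripts encoded by mitochondrial DNA, without ribosomal RNA, took 2.82% and 2.53% of the counts of the control mice and 4.45% and 4.49% of those of the surgery mice. In whole tissue, fewer cells of a type and less RNA per cell cannot be told apart, and the part of these differences in the results below was not tested.

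Counts were scaled by TMM to CPM and tested with the quasi-likelihood method of edgeR, p-values being adjusted (Benjamini-Hochberg) over the 17144 genes tested, and all 7 assembly factors passed the filter on low counts. A gene passed the test at an adjusted p under 0.05. Of the 7, 1 was lower in the surgery mice and 0 were higher, against 12.8% lower and 13.1% higher, or 26% in either direction, over all genes tested. At an unadjusted p under 0.05 there were 3 of the 7 by edgeR, near the share of all genes, 6748 of the 17144 tested. By DESeq2, an alternative count test, there were 2 of the 7. None was a differentially expressed gene (DEG) with a fold of 1.5 or more, or 0.67 or less, together with an adjusted p under 0.05, for which the background was 2.25% lower and 6.75% higher. The median log2 fold change of the 7 genes was -0.08, against 0.01 over all genes tested. The libraries of both groups did not overlap for 6 of the 7, of which 4 were lower and 2 higher in the surgery mice, where 65.5% of all genes did not overlap (32.2% lower, 33.2% higher). The share that passed lower, 1 of 7, is near its background.

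**Figure D1:**
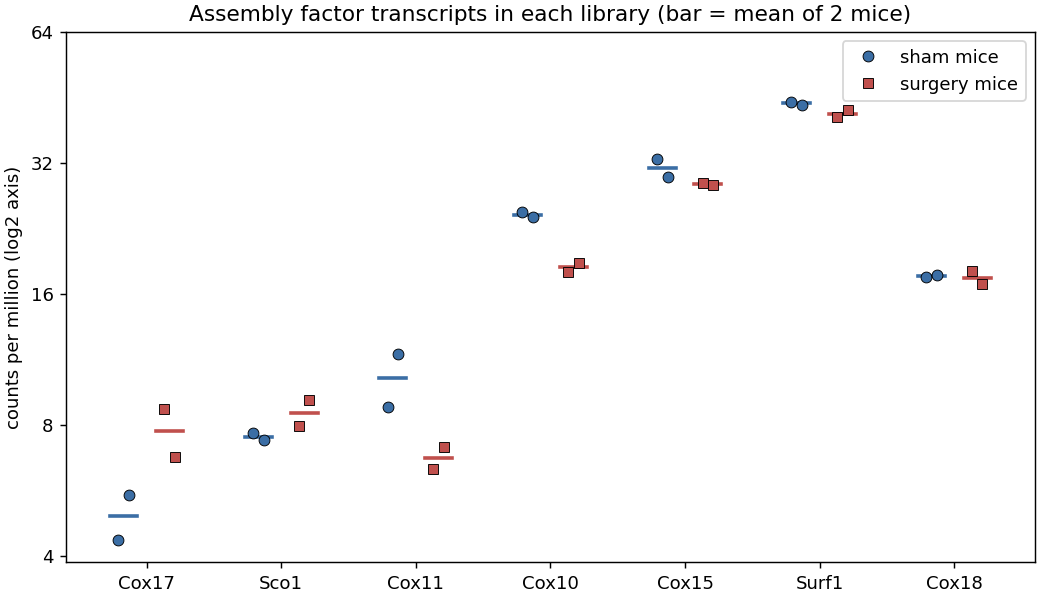
CPM, on a log2 axis, of the 7 assembly factors in each of the 2 control (sham, circles) and 2 surgery (squares) mice, with a bar at each group's mean. Cox10 and Cox11 sit lower and Cox17 sits higher in both surgery mice, and the points of Cox18 overlap.

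The fold changes of the copper factors did not share a sign, and none of these factors passed the test. Cox17, the copper carrier, was counted 75 and 101 times in control mice, against 139 and 114 times after surgery. On the CPM scale these were 4.35 and 5.53 against 8.72 and 6.75, so that both surgery mice lay above both control mice. Its mean CPM went from 4.94 ± 0.829 to 7.74 ± 1.39 (SD, n = 2). The log2 fold change of 0.64, with a 95% interval of 0.10 to 1.18, did not pass the test (adjusted p = 0.082, edgeR). It was 0.43 without the first surgery mouse, 0.82 without the second, and leaving out control mice gave 0.48 (the first) and 0.82 (the second). With smooth trends of transcript length and GC content taken out of each library, it was 0.42 (adjusted p = 0.34, edgeR).

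Sco1 (ENSMUSG00000069844, chr11:67052670-67067070, plus strand), which receives copper from Cox17, was counted 132 and 135 times in control mice and 127 and 154 times after surgery. After scaling these were 7.66 and 7.39 CPM against 7.96 and 9.12, a narrow separation with the surgery mice above. The log2 fold change was 0.18 (95% interval -0.22 to 0.59, adjusted p = 0.46 by edgeR), so changes within that interval could not be told from 0 at this depth. With the length and GC trends removed, it was -0.0035.

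Cox11 (ENSMUSG00000020544, chr11:90638173-90644931, plus strand), which brings copper to mt-Co1, was counted 152 and 213 times in control mice and 101 and 120 times after surgery. These were 8.82 and 11.7 CPM against 6.33 and 7.11, with both surgery mice below both control mice and the control mice farther from each other than the surgery mice. From 10.2 ± 2.00 to 6.72 ± 0.549 CPM (SD, n = 2), its log2 fold change was -0.61 (95% interval -1.09 to -0.13) and did not pass the test (adjusted p = 0.068, edgeR). Cox11 was among the genes that the study selected as lower on these same libraries, so its direction here is not independent evidence. The study also reported a fall of Cox11 by qPCR. Of the 7 factors, Cox17 and Cox11 had the widest intervals and also the lowest CPM means together with Sco1. The value of Cox11 depended on the control mice. Leaving out the first gave -0.80 (adjusted p = 0.040, edgeR) and leaving out the second gave -0.39 (adjusted p = 0.30, edgeR). With the length and GC trends removed it was -0.77 (adjusted p = 0.098, edgeR).

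The heme factors Cox10 and Cox15 act in consecutive steps, and their values are given side by side. Cox10 (ENSMUSG00000042148, chr11:63962627-64079468, minus strand) was counted 425 and 440 times in control mice and 287 and 319 times after surgery. On the CPM scale, 24.7 and 24.1 stood against 18.0 and 18.9, so that the gap between the groups was several times the distance within either. Cox10 fell from 24.4 ± 0.424 to 18.4 ± 0.640 CPM (SD, n = 2), to 0.757 of its control level, or -0.40 on the log2 scale (95% interval -0.65 to -0.15, adjusted p = 0.033 by edgeR). Cox10 was the only factor of the 7 to pass, and the call was narrow. It was lost without any 1 of the 4 libraries, with log2 fold changes of -0.43 to -0.38 and adjusted p-values of 0.076 to 0.10 in the edgeR fits. By DESeq2 the adjusted p was 0.080. With the length and GC trends removed, the log2 fold change of Cox10 was -0.16 (adjusted p = 0.40, edgeR). Its transcripts had a GC content of 54.4%, the highest of the 7 factors, against a median of 49.97% over the genes tested.

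Cox15 (ENSMUSG00000040018, chr19:43733254-43753000, minus strand) was counted 564 and 543 times in control mice and 460 and 480 times after surgery. These gave 32.7 and 29.7 CPM against 28.8 and 28.4, and the distance between the control mice was larger than that between the group means. Its log2 fold change was -0.12 (95% interval -0.35 to 0.11, adjusted p = 0.38 by edgeR). With the length and GC trends removed it was -0.19 (adjusted p = 0.29, edgeR), beside the -0.16 of Cox10, so the uncorrected fold changes of the heme pair lay apart and the corrected ones did not. The difference between both genes was not tested.

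Surf1 and Cox18, which act in the assembly of mt-Co1 and the insertion of mt-Co2, had the fold changes closest to 0 without the length and GC correction. Surf1 (ENSMUSG00000015790, chr2:26913381-26916530, minus strand) was counted 762 and 797 times in control mice and 651 and 715 times after surgery, or 44.2 and 43.6 CPM against 40.8 and 42.4. With the most counts of the 7, it also had the narrowest interval, -0.27 to 0.11 around a fitted value of -0.08 on the log2 scale (adjusted p = 0.50 by edgeR), which was 0.089 with the length and GC trends removed. Cox18 (ENSMUSG00000035505, chr5:90214724-90224001, minus strand) was counted 302 and 323 times in control mice and 288 and 285 times after surgery. Its 17.5 and 17.7 CPM in the control mice lay between the 18.1 and 16.9 CPM of the surgery mice, and the log2 fold change was -0.01 (95% interval -0.28 to 0.26, adjusted p = 0.95 by edgeR). The sign of this value turned with the scaling, to 0.036 with scaling to library totals alone.

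**Figure D2:**
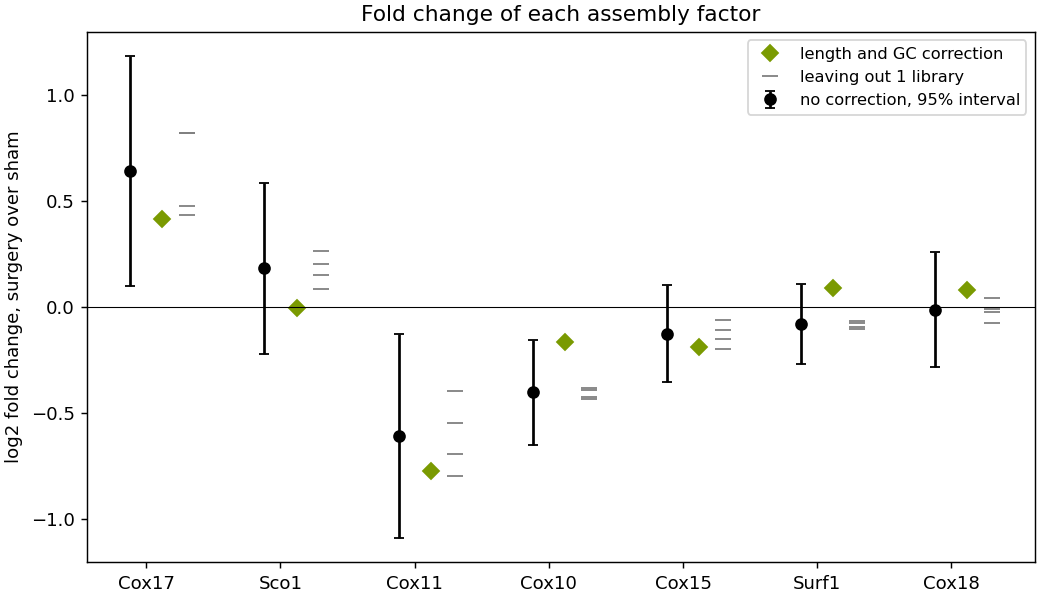
Log2 fold change of surgery over control mice for each assembly factor, with its 95% interval (black, 4 libraries), with the length and GC trends removed (green diamonds) and with each library left out in turn (gray dashes). The interval of Cox17 lies above 0, those of Cox11 and Cox10 lie below it, and the corrected value of Cox10 is closer to 0 than its uncorrected value.

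Ratios of raw counts between factors within a library do not depend on the scaling of libraries, and these pairs were chosen after the values were seen. For Cox17 to Cox11, the copper donor and an acceptor, the ratio was 0.493 and 0.474 in control mice and 1.38 and 0.950 after surgery. The lower surgery value was 1.93 times the higher control value, and it carries the uncertainty of the Cox17 locus given above. For Sco1 to Cox11, the 2 acceptors, the ratio was 0.868 and 0.634 against 1.26 and 1.28. For Cox17 to Sco1 it was 0.568 and 0.748 against 1.09 and 0.740, so the groups overlapped. For the heme pair, Cox15 to Cox10, it was 1.33 and 1.23 in control mice and 1.60 and 1.505 after surgery. Ratios of raw counts still hold the length and GC trends, and with these removed the log2 fold changes of Cox15 and Cox10 were -0.19 and -0.16, and the heme pair no longer lay apart. Those of Cox17 and Cox11 were then 0.42 and -0.77. These ratios are descriptions and were not tested.

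**Figure D3:**
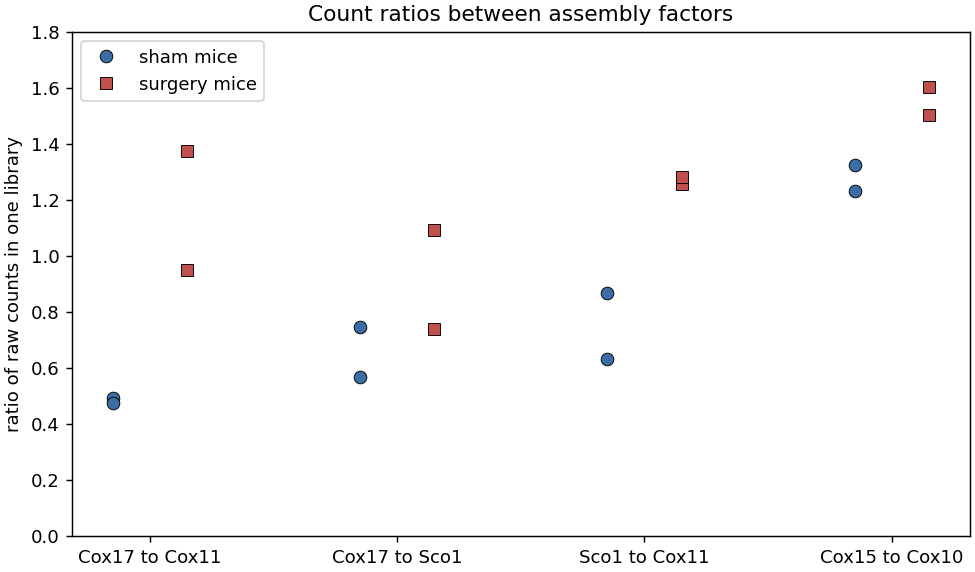
Ratio of raw counts between 2 assembly factors in the same library, for 2 control (circles) and 2 surgery (squares) mice, on an axis from 0. The surgery mice lie above the control mice for Cox17 to Cox11, Sco1 to Cox11 and Cox15 to Cox10, and the groups overlap for Cox17 to Sco1.

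To compare levels between the factors, CPM were divided by the length of each gene's principal mRNA. In the control mice Surf1 was the highest with 37.4 ± 0.381 CPM per kb (SD, n = 2), and it was also the highest, with 25.1 ± 0.255, over the length of all annotated exons. Cox18 had 13.2 ± 0.0740 CPM per kb of its mRNA, above Cox10 and Cox11, but 6.495 ± 0.0364 over all annotated exons, where Cox10 had 8.03 ± 0.140 and Cox11 7.20 ± 1.41. Per kb of mRNA, Cox11 with 8.36 ± 1.63 and Cox10 with 8.36 ± 0.146 CPM did not differ beyond their spread, and neither did Cox11 and Cox15, at 6.51 ± 0.447. Sco1 was the lowest with 3.12 ± 0.0812 CPM per kb of mRNA. The places of Cox17 and Cox18 thus depended on the length used, and Cox17 had 11.1 ± 1.87 CPM per kb over the 444 nt of its mRNA and 0.856 ± 0.144 over all of its annotated exons. In the surgery mice the order of Cox11 and Cox15 was the reverse, with 5.49 ± 0.449 and 5.97 ± 0.0594 CPM per kb, but their ranges of mean ± SD again overlapped. Summed over the 7 factors, control mice had 140.0 and 139.6 CPM and surgery mice 128.7 and 129.6.

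Several factors overlap, or start beside, a gene of the other strand, and without strand in the counting the reads of overlapping exons cannot be told apart. Exons of Tom1l1 cover 48.3% of the Cox11 exons, and Tom1l1 was counted 295 and 324 times in control mice and 323 and 378 times after surgery, with a log2 fold change of 0.29 (adjusted p = 0.11, edgeR). Exons of Entpd7 cover 9.04% of those of Cox15 and those of Surf2 cover 7.82% of those of Surf1. Their log2 fold changes were 0.24 and -0.14. Of the genes that start head to head with a factor within 1000 nt, Stxbp4, which starts 89 nt upstream of Cox11, had a log2 fold change of 0.25, Adprm next to Sco1 had 0.18, 2810001G20Rik next to Cox10 had 0.26 and Cutc, a copper homeostasis gene next to Cox15, had -0.11. The noncoding gene 9630013K17Rik, with 49 nt in common with Cox10, had 0.25. None of these 8 genes passed the edgeR test, with adjusted p-values of 0.11 to 0.73. Of the 75 nt windows of their transcripts, searched in the sense direction only, 3.01% of Cox17, all in Gm21987, and 0.393% of Sco1 also occurred in transcripts of another gene, and those of the other 5 factors did not.

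RefSeq promoter sequences (GRCm38.p6) were matched for 6 of the 8 factors, without Cox17 and Cox18, and the 250 nt before each start were searched on both strands. The motifs were GCGCA and GCGC with 1 base of any kind between them for NRF-1, a regulator of nuclear genes for mitochondrial proteins, CCGGAAG for the ETS factor GABPA (NRF-2), which is known to act on complex IV genes, and GGGCGG for SP1. The NRF-1 motif matched 0 of the 6 and 3.73% of 32817 promoters of the same length. CCGGAAG matched 2 of the 6, Cox10 and Sco1, and 6.90% of all promoters. GGGCGG matched 5 of the 6, all but Cox11, and 32.7% of all promoters. The windows around the CCGGAAG matches are shown, since Cox10 passed the test as lower while Sco1 did not pass, with the motif or its reverse complement in capitals, at chr11:64079473-64079521 on the minus strand and chr11:67052603-67052653 on the plus strand.
Cox10: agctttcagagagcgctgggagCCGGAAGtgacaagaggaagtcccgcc
Sco1: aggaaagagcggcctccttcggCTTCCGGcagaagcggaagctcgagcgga
A match is a description of the letters and no proof of binding, and the Cox11 window held none of these 3 motifs.

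The genes whose products work beside these factors were followed as 5 further lists. Of 22 other assembly and translation factors of complex IV, 18 were tested, 2 passed as lower and 1 as higher, no larger a share than the 12.8% and 13.1% of all genes, and the median log2 fold change was -0.22. Cox14 and Coa3, which hold newly made mt-Co1 in early assembly, both fell, Cox14 from 54.1 ± 0.952 to 39.5 ± 2.27 CPM (log2 fold change -0.45, adjusted p = 0.011) and Coa3 from 55.5 ± 1.61 to 40.6 ± 4.08 (-0.45, adjusted p = 0.017). Cmc1, which binds the mt-Co1 assembly intermediate, rose from 5.78 ± 0.123 to 9.21 ± 0.967 CPM (SD, n = 2; log2 fold change 0.67, adjusted p = 0.035 by edgeR). It was the only DEG of the list, but Cmc1 passed in 4 of the 11 alternatives, and not by DESeq2. Coa3 passed in 7 and Cox14 in 9. After removal of the length and GC trends, Cox14 was at -0.24, Coa3 at -0.21 and Cmc1 at 0.47, and none of these passed (adjusted p = 0.14 to 0.22, edgeR). Coa6, a partner of the Sco proteins, had a log2 fold change of -0.45 (adjusted p = 0.12). Cox19, a relative of Cox17 that acts with Cox11, had -0.22 (adjusted p = 0.095) and the insertase Oxa1l -0.23 (adjusted p = 0.093), each by the edgeR test. Coa5 and Cox20 were at 0.04 and -0.07. Cox16 and Fdx1l, a ferredoxin, had 6 to 11 counts in each library and did not pass the filter, and Coa1 and Pet117 were not analysed here.

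Of the genes that bring copper to Cox17 or use it elsewhere in the cell, 5 of 9 were lower and 0 higher by edgeR, against 12.8% and 13.1% of all genes. At an unadjusted p under 0.05 there were 5 by edgeR, against 6748 of all 17144 genes. The median log2 fold change of the list was -0.37. Commd1, a regulator of copper export, fell the most, from 23.6 ± 2.04 to 13.9 ± 2.37 CPM (log2 fold change -0.76, adjusted p = 0.015 by edgeR). Atox1, which carries copper to the export pumps, fell from 25.3 ± 2.24 to 15.5 ± 0.320 CPM (-0.71, adjusted p = 0.0083). Sod1, the copper and zinc superoxide dismutase, had -0.51 (adjusted p = 0.0060), Ccs, its copper chaperone, -0.49 (adjusted p = 0.038) and Slc25a3, the phosphate carrier that also brings copper into the matrix, -0.27 (adjusted p = 0.021), all by the edgeR test. Ccs passed in 3 of the 11 alternatives. With the length and GC trends removed, Atox1 was at -0.38 (adjusted p = 0.12) and Ccs at -0.20 (adjusted p = 0.43) and neither passed by edgeR, while Commd1 (-0.89), Sod1 (-0.53) and Slc25a3 (-0.37) did. The uptake transporter Slc31a1 was at 17.2 and 46.2 CPM in control and at 27.8 and 34.6 CPM in surgery mice, with a log2 fold change of -0.03. Without the second control mouse, which had the most choroid plexus markers, it was 0.85 (adjusted p = 0.021, edgeR), and without the first, which had the least, it was -0.57 (adjusted p = 0.032, edgeR), so its direction turned with the control mouse left out. Without the second control mouse 2 of the copper genes, Atox1 and Sod1, still passed as lower. The order of Slc31a1 over the 4 libraries was that of the summed choroid plexus markers, whose part in its level was not tested. Atp7a, a copper export pump, was at 0.09. Among the 8 genes of heme synthesis, 2 passed as lower and 0 as higher, against 12.8% and 13.1% of all genes, with a median of -0.19. These were Urod (-0.35, adjusted p = 0.038) and Alas1, the first and rate-limiting step (-0.29, adjusted p = 0.032). Fech, which inserts the iron, had -0.09 (adjusted p = 0.43). Urod passed in 3 and Alas1 in 4 of the 11 alternatives, and corrected for length and GC content they were at -0.15 and -0.10. With scaling to library totals 0 of the heme synthesis genes passed (3 at an unadjusted p under 0.05, edgeR).

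The nuclear structural subunits, to which the assembled core is joined, gave 9 lower and 0 higher of 15 tested, against 12.8% and 13.1% of all genes. At an unadjusted p under 0.05 there were 10 by edgeR, against 6748 of all 17144 genes. Their median log2 fold change was -0.39. Cox5a (-0.82), Cox4i1 (-0.73), Cox6a1 (-0.65) and Cox7c (-0.59) had the largest falls without the length and GC correction. With it the largest falls that passed were those of Cox5a (-1.07), Cox7c (-0.87), Cox7b (-0.76) and Ndufa4 (-0.58), Cox4i1 (-0.48) passed too, and Cox6a1 (-0.29) did not (adjusted p = 0.058, edgeR). Several of these subunits are among the genes the study selected as lower on these libraries, so their count is not independent evidence of a direction. By qPCR the study also reported falls of those it selected, and by immunoblot a later fall of Cox5a protein. The 3 core subunits encoded by mitochondrial DNA, of which mt-Co1 and mt-Co2 receive the copper, were all higher. The transcript of mt-Co1, which takes copper through Cox11 and heme a, rose from 12402 ± 1065 to 19631 ± 100 CPM (SD, n = 2; log2 fold change 0.66, adjusted p = 0.0054 by edgeR). That of mt-Co2, which takes copper through Sco1, rose from 32.1 ± 4.41 to 71.3 ± 2.08 CPM (1.15, adjusted p = 0.0043), and mt-Co3, which holds neither metal, from 19.1 ± 3.91 to 43.1 ± 10.3 CPM (1.18, adjusted p = 0.0094). In the first control library mt-Co2 was counted 607 times and mt-Co3 376 times, against 226607 times for mt-Co1. Why mt-Co2 and mt-Co3 had so few counts was not tested, so their CPM may not be full transcript levels. Corrected for length and GC content, mt-Co1 was at 0.10, mt-Co2 at 0.45 and mt-Co3 at 0.52 on the log2 scale, all below their uncorrected values. Then 0 of the 3 passed (2 at an unadjusted p under 0.05, edgeR), as against 5 of the structural subunits, 3 of the copper genes, 0 of the other assembly factors (5 unadjusted) and 0 of the heme synthesis genes (0 unadjusted). Under this correction 0.986% of all genes passed as lower and 1.45% as higher, so a count of 0 in a short list says little. The structural subunits and copper genes, lists chosen with earlier results known, passed as lower in larger shares. The lists were not tested against each other, so the smaller median of the 7 factors is not shown to differ from that of the structural subunits.

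**Figure D4:**
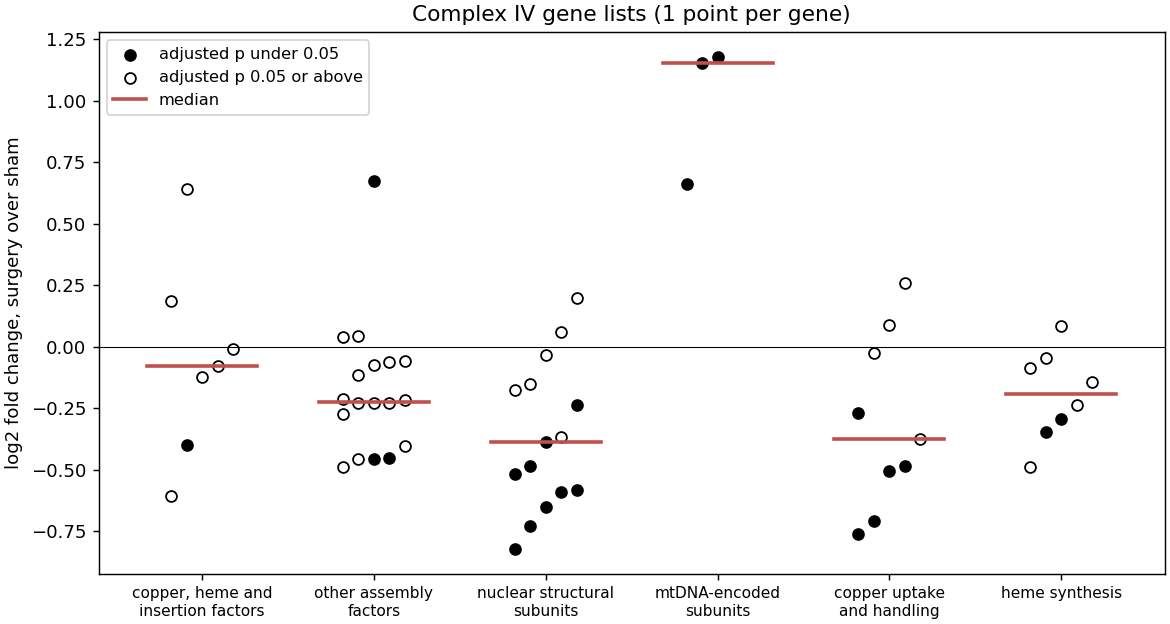
Log2 fold change of surgery over control mice for each tested gene of 6 complex IV gene lists, with filled points for an adjusted p under 0.05 by edgeR and red bars for the list medians. The medians are -0.08 for the 7 copper, heme and insertion factors, -0.22 for other assembly factors, -0.39 for nuclear structural subunits, 1.15 for mitochondrially encoded subunits, -0.37 for copper handling and -0.19 for heme synthesis.

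Over the 4 libraries, the median centered log2 CPM of the 7 factors was 0.05 and 0.01 in control and -0.05 and -0.05 in surgery mice. The 3 tested protein-coding genes with the nearest profile by Euclidean distance were Tut1, Ilkap and Exoc2, at distances of 0.0224 to 0.0252 on the log2 scale over 4 libraries.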

How the data were processed

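Poly(A) RNA of 4 hippocampal libraries was sequenced by the authors as 150 nt paired-end reads and mapped to mm10 with HISAT. The submitters' processing notes list Bowtie2 2.2.3, HISAT2 2.1.0, TopHat2 and HTSeq 0.6.0, without their roles. The authors deposited raw counts of reads per gene and, from their own comparison, a mean signal, a fold change as a ratio, its log2 and p-values, of which only the counts were used. Whether counting used strand is not given in the sources used here.

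The analysis used R 4.3.3 and edgeR 4.0.16 (filterByExpr at a minimum count of 10, TMM, glmQLFit without its legacy form) and treatment as the only term, with limma 3.58.1 loaded, DESeq2 1.42.0 as an alternative and mgcv 1.9.3 for smooth length and GC trends fitted library by library (basis size 8), entered as offsets. Other alternatives were library totals, RLE size factors, no filter, a replicate block and leaving out each library. The 95% intervals come from the same fit. Annotation was GENCODE M21. The factors and gene lists were chosen with earlier results of these data known. Genes outside the factors were named where they had up to the 4 largest changes of a list that passed, were fixed partners, overlapped a factor or started beside it, or had the nearest profiles, and Cox7b, Ndufa4, Higd1a and the markers of cell types were named after their values were seen. Marker lists covered hippocampus, striatum, thalamus, choroid plexus, neurons, 3 kinds of glia, endothelial and red blood cells, and outside the hippocampal list 3 of their genes were lower and 4 higher. On simulated counts for this comparison, with 16828 genes tested, edgeR recovered 89 of 100 genes changed by 1 and 57 of 100 changed by 0.6 on the log2 scale, and called 19 unchanged genes. The simulation changed far fewer genes than passed in the data, and at a range of levels. These rates are therefore not those of genes with as few counts as Cox17 or Cox11. Replicates differed by more than sampling noise (chi-square per degree of freedom 13.4 and 8.45), and p-values for 2 mice against 2 use a spread shared across genes. The chi-square is summed over genes, so genes with many counts weigh most in it. Among them is Ttr, a choroid plexus marker with 1566 and 92825 counts in the control mice.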

Additional observations from a re-analysis of the deposited data

How the results depend on the processing

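With 2 mice a group and 75 to 797 counts for each factor and library, changes near 0.6 on the log2 scale in Cox17 and Cox11 lay at the limit of the test, and counting error alone is larger for these than for Surf1. With 1 library left out, the lone mouse is assumed to vary like the other group. The number of factors that passed as lower, 1, was 0 by DESeq2 (2 at an unadjusted p under 0.05), 0 without the filter on low counts (3) and 0 with the length and GC correction (1, edgeR), under which 418 of all genes passed in place of 4449. Over all genes, 2665 passed without the filter, 2701 with the correction and the block, and 2408 to 4105 with a library left out, the fewest without the second control mouse and 2933 without the second surgery mouse. It ran from 0 to 1 when each library was left out. The shared replicate numbers 1 and 2 do not say that mice were paired (correlation of the differences between replicates 0.22 across genes). With the replicate number as a block, 2 factors passed as lower, Cox10 and Cox11 (-0.60), and 5281 of all genes passed. With the block and the correction together 1 passed, Cox11 (-0.76, adjusted p = 0.012, edgeR; range over its alternatives 0.012 to 0.30).

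The median of the 7 factors, -0.08, was -0.031 with library totals, -0.0035 with the correction and -0.0051 with correction and block, and -0.10 to -0.06 when each library was left out. The sign turned for Sco1 (-0.0035 with the correction, -0.0051 with the block added), for Surf1 (0.089 and 0.089) and for Cox18 (0.080 and 0.079, 0.036 with library totals, and -0.075 to 0.042 with a library left out, positive without the second surgery mouse). Cox11, Cox10, Cox15 and Cox17 kept their sign in all 11 alternatives.

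The other assembly factors that passed, 3, were 1 without the filter and 0 with the correction (5 unadjusted, edgeR), 2 others (Coa6 and Higd1a) with correction and block, and 1 to 5 with a library left out. The structural subunits, 9, were 5 with the correction, 10 with correction and block, and 7 to 9 with a library left out. The mitochondrially encoded subunits, 3, were 0 with the correction (2 unadjusted, edgeR) and 2 with correction and block. The copper genes, 5, all lower, were 3 with the correction, 4 with correction and block, and 3 to 5 with a library left out, where without the second control mouse 2 were lower (Atox1 and Sod1) and 1 higher (Slc31a1, which passed as lower, at -0.57, without the first control mouse). The heme synthesis genes, 2, were 0 with library totals (3 unadjusted), 0 without the filter (3), 0 with the correction (0) and 0 with correction and block (0, all edgeR), and 0 to 2 with a library left out. The cause of these differences was not tested.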
